A study of Mus musculus with 4 samples.

Results

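The common gamma chain cytokine receptors and their kinases were followed in double negative T cells from mouse livers, as 10 genes of the 17454 in the table, chosen by symbol: the chains Il2ra, Il2rb, Il2rg, Il7r, Il15ra, Il4ra, Il21r and Il9r and the kinases Jak1 and Jak3. Double negative T cells carry CD3 but neither CD4 nor CD8. The RNA was sequenced in bulk from viable (7-AAD-) liver cells of adult C57BL/6 mice, gated by flow cytometry as CD45+ and CD3+ without NK1.1, CD4 or CD8. The mice had eaten a normal diet (2 libraries) or a methionine-choline deficient diet (2 libraries), a diet used in mice as a model of fatty liver with inflammation. No allele or agent beyond the diet is given in the labels, and the duration of the diet and the number of animals behind a library are not given in the labels used here. It is not stated that replicate libraries stem from different mice, so the p-values reflect no more than the spread among these libraries, which may be technical.

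The receptors for IL-2, IL-4, IL-7, IL-9, IL-15 and IL-21 share the chain encoded by Il2rg, the common gamma chain, which pairs with a chain that is private to a cytokine or used by few. JAK1 binds the private chain and JAK3 the gamma chain, and the pair of kinases activates STAT proteins, mainly STAT5 for IL-2, IL-7, IL-9 and IL-15, STAT6 for IL-4 and STAT3 for IL-21. In T cells IL-7 and IL-15 are known as survival signals of resting and memory cells, and IL-2 as a growth signal of activated cells. IL-7 is known to be needed for the maintenance of IL-17-producing T cells, while CD122, the product of Il2rb, is high on memory-like CD8 T cells and natural killer cells.

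Among these genes 2 passed the test, and both rose on the deficient diet: Il7r, the private chain of the IL-7 receptor, and Il2ra, the chain that gives the IL-2 receptor its high affinity. The chains with the lowest values relative to the normal diet, Il21r and Il2rb, did not pass, nor did the shared chain Il2rg and the kinases Jak1 and Jak3, whose log2 differences were 0.15, -0.0092 and 0.13. The start regions of Il7r and Il2ra, which rose, and of Il2rg, the shared chain, are shown as the stretch from 250 bases before to 50 bases after the RefSeq start, 5′ to 3′ along the gene (RefSeq, build GRCm38.p6, which is not the build mm8 of the submitters' processing notes). Of the 10 genes 9 have such a sequence. Capitals mark matches, on either strand, to 4 motifs: STAT (TTCNNNGAA), NF-kB (GGGA, then 4 free bases, then CC), ETS (CCGGAAG) and AP-1 (TGANTCA). No match overlaps another in these 3 sequences.
Il7r (chr15:9529827-9530126, minus strand): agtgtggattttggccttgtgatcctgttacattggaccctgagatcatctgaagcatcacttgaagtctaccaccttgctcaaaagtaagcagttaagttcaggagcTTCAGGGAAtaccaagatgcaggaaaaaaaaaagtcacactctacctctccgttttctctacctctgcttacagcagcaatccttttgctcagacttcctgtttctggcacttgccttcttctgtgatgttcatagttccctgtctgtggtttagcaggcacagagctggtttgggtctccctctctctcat
Il2ra (chr2:11642542-11642841, plus strand): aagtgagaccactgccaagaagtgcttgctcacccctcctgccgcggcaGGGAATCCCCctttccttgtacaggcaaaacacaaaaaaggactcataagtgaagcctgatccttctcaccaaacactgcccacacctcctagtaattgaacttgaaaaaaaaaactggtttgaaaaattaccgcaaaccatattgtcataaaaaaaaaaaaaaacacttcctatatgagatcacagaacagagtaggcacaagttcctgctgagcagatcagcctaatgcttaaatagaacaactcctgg
Il2rg (chrX:101268206-101268505, minus strand): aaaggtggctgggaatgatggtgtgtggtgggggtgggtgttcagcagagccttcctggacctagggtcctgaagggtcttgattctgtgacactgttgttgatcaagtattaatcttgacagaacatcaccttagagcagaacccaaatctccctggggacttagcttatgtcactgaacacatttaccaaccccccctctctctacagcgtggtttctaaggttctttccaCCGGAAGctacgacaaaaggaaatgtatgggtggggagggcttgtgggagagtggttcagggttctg
The Il7r stretch holds 1 STAT match, which begins 142 bases before the start, and the Il2ra stretch 1 NF-kB match, which begins 201 bases before it. The Il2rg stretch holds 1 ETS match, which begins 17 bases before the start. Of the stretches not shown, that of Il21r also holds 1 NF-kB match, which begins 231 bases before the start. Of the Il15ra stretches, 1 holds an ETS match and another an AP-1 match. Those of Jak1, Il4ra, Jak3 and Il9r hold no match to the 4 motifs. Of 32851 such stretches of mouse genes, 8.30% hold the STAT motif, 20.7% the NF-kB motif, 8.86% the ETS motif and 7.81% the AP-1 motif. These matches describe the letters and do not show binding.

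The values were taken as FPKM, a level scaled by transcript length, which would let levels be compared between genes. The unit is not named in the table or the labels and was inferred from the values, which do not themselves show a scaling by length. The orders and shares of genes and the size of the ratios between them, given below, rest on that scaling. Normal diet replicate 2 held the highest summed level of markers of B cells, macrophages, neutrophils, sinusoidal endothelium and hepatocytes, and normal diet replicate 1 the lowest. In the normal diet libraries the order of mean levels was Il2rb (598.8 ± 94.3 FPKM, mean ± SD, n = 2, the number of libraries behind every mean below), Il2rg (413.3 ± 13.0), Jak1 (185.5 ± 8.36), Il21r (168.6 ± 47.6), Il7r (154.6 ± 10.2), Il4ra (78.6 ± 15.4), Jak3 (53.5 ± 3.88), Il2ra (17.4 ± 1.71), Il15ra (5.03 ± 1.25) and Il9r (0.594 ± 0.00479). Within that order the libraries of Il21r overlapped those of both of its neighbours, Jak1 and Il7r, and the other neighbours were separate. In the deficient diet libraries the order was Il2rg (459.4 ± 9.63 FPKM), Il7r (454.7 ± 6.90), Il2rb (335.0 ± 68.2), Jak1 (184.4 ± 13.6), Il2ra (74.1 ± 14.4), Il4ra (69.9 ± 12.7), Il21r (61.7 ± 3.32), Jak3 (59.9 ± 18.4), Il15ra (4.49 ± 1.03) and Il9r (0.714 ± 0.436). There Il2rg and Il7r overlapped, as did the run from Il2ra to Jak3. By mean level over the 4 libraries, Il2rb, Il2rg and Il7r lay above 99.1%, 99.0% and 98.4% of the genes tested, and Il15ra above 31.1%.

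**Figure D1:**
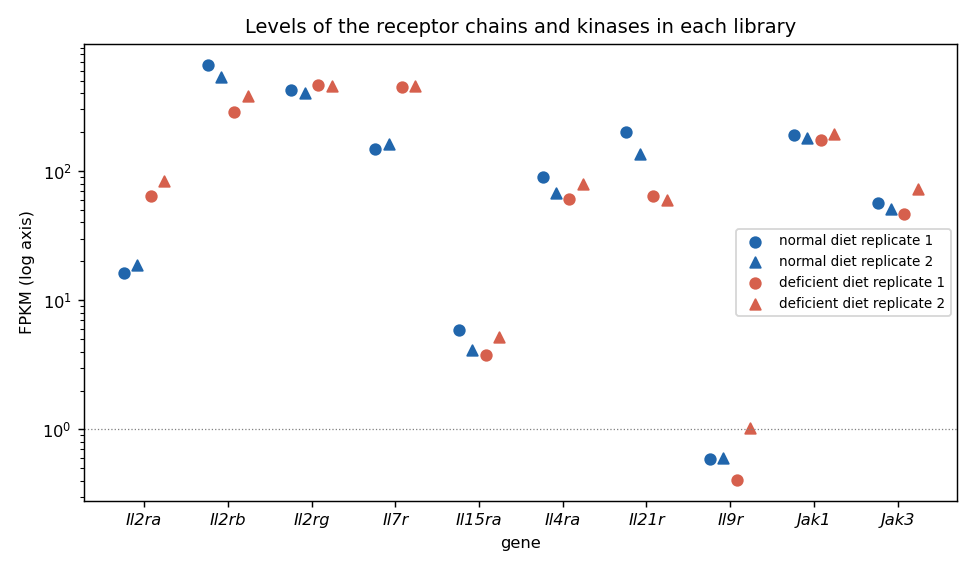
FPKM (vertical log axis) of each of the 10 genes (horizontal axis) in each library, blue for the normal diet and red for the deficient diet, with circles for replicate 1 and triangles for replicate 2; the dotted line is 1 FPKM. The red points of Il7r and Il2ra lie above the blue ones, those of Il2rb and Il21r below, and the points of Il4ra, Il15ra, Jak1 and Jak3 are mixed.

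The comparison asked how these levels differed between the diets. It was made with limma on log2(FPKM + 1) over the 10423 genes that reached 1 FPKM in 2 or more libraries, with a Benjamini-Hochberg adjusted p of 0.05 over all of them. Of the 10 genes 9 passed that filter, each with over 1 FPKM in all 4 libraries, and Il9r, the private chain of the IL-9 receptor, did not: it was at 0.591 and 0.598 FPKM in the normal diet group, against 0.406 and 1.02 FPKM on the deficient diet, so its groups overlap. Of the 9 tested, 2 passed as higher and 0 as lower in limma, beside 1.22% and 1.53% of all genes tested (2.74% in either direction). No gene of the whole table passed in limma when any library other than normal diet replicate 2 was left out, where 1337 to 2029 genes had an unadjusted p under 0.05. With all libraries 4 of the 9 had an unadjusted p under 0.05, 2 in each direction, beside 22.8% of all genes tested, 11.9% higher and 10.9% lower. The libraries of the diets did not overlap for 5 of the 9, 3 higher and 2 lower on the deficient diet, which is beside 56.2% of all genes tested, 30.7% higher and 25.5% lower. The median log2 difference of the 9 was -0.0092, beside 0.040 for all genes tested.

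Il7r encodes CD127, which pairs with the gamma chain as the receptor for IL-7. Its level was 147.4 and 161.8 FPKM in mice fed normally, against 449.8 and 459.6 FPKM with the deficient diet. Both deficient diet libraries were high, and the groups did not overlap. Il7r rose 2.94-fold by mean FPKM, a log2 difference of 1.55 ± 0.13 (SE) with a limma adjusted p of 0.0323. In bulk RNA, a different number of cells of a type and a different amount of RNA per cell cannot be told apart. The adjusted p was 0.0293 without normal diet replicate 2, and the call was lost without normal diet replicate 1 (adjusted p = 0.0836), deficient diet replicate 1 (0.0881) or deficient diet replicate 2 (0.231), where the log2 difference was 1.48, 1.57 and 1.54. Without a filter on low values the adjusted p was 0.133.

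Il2ra encodes CD25, which turns the IL-2 receptor of intermediate affinity, formed by Il2rb and Il2rg, into the high affinity form. It was at 16.2 and 18.6 FPKM in the normal diet group, against 63.9 and 84.3 FPKM on the deficient diet. The groups did not overlap, and deficient diet replicate 2 was the highest. Il2ra rose 4.25-fold by mean FPKM, a log2 difference of 2.02 ± 0.20 (SE) with a limma adjusted p of 0.0323, and held place 72 among the 10423 genes when ordered by rise. As for Il7r, the call held without normal diet replicate 2 (adjusted p = 0.0271) and was lost without normal diet replicate 1 (0.0822), deficient diet replicate 1 (0.0855) or deficient diet replicate 2 (0.231), and it was lost without the filter on low values (0.151). CD25 is also a marker of regulatory T cells. Foxp3, which defines them, was under 1 FPKM in all 4 libraries, at 0.455 and 0.221 FPKM in the normal diet group, against 0.189 and 0.308 FPKM on the deficient diet. Of the 6 regulatory T cell markers listed 5 were tested, 2 of them at an unadjusted p under 0.05 (22.8% of all genes tested). Both of these passed in limma (2.74% of all genes tested). Ctla4, an inhibitory receptor, rose from 19.9 and 18.9 to 49.6 and 61.7 FPKM (limma adjusted p = 0.0365), and Folr4 fell from 31.2 and 30.6 to 7.37 and 8.78 FPKM (0.0323). The list summed to 222.3 to 270.3 FPKM on the normal diet and 246.9 to 263.0 FPKM on the deficient diet, and its part in the level of Il2ra was not tested.

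Type 2 innate lymphoid cells carry both Il7r and Il2ra but lack surface CD3, on which the gate selected. Of 6 markers of type 2 innate lymphoid cells 5 were tested, 4 higher and 1 lower on the deficient diet without overlap. Of all genes tested 30.7% were higher and 25.5% lower without overlap. An unadjusted p under 0.05 in limma was seen for 4 of the 5, beside 22.8% of all genes tested. Rora, a transcription factor, rose from 33.0 and 25.6 to 84.6 and 97.5 FPKM (limma adjusted p = 0.0365), and Klrg1, an inhibitory receptor also found on T cells, fell from 78.1 and 50.6 to 5.79 and 3.49 FPKM (0.0323). Il17rb, a chain of the IL-25 receptor, was at 6.77 and 13.4 FPKM in the normal diet group, against 38.0 and 46.4 FPKM on the deficient diet, and did not pass (0.0547). Areg, the growth factor amphiregulin, stood at 8.41 and 11.9 against 16.3 and 22.2 FPKM (0.146), and Gata3, a transcription factor also used by T cells, at 79.5 and 78.5 against 92.1 and 95.4 FPKM (0.343). Il1rl1, the IL-33 receptor chain that defines these cells, was under 1 FPKM in all 4 libraries. The list summed to 180.0 to 206.4 FPKM on the normal diet and 237.7 to 265.2 FPKM on the deficient diet, and its part in the levels of Il7r and Il2ra was not tested.

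Il2rb encodes CD122, which serves both the IL-2 and the IL-15 receptor. It was at 665.4 and 532.1 FPKM in the normal diet group, against 286.7 and 383.3 FPKM on the deficient diet. Both normal diet libraries were higher and the groups did not overlap, with a log2 difference of -0.84 (95% interval -1.40 to -0.29) that did not pass in limma (adjusted p = 0.112). Cd8a and Klrb1c, markers of cells that the sort should remove and that carry CD122, also had lower values on the deficient diet, at 22.4 and 8.26 against 0.836 and 1.42 FPKM for Cd8a and at 18.3 and 13.8 against 5.34 and 2.96 FPKM for Klrb1c. Of the 5 markers of removed cells (Cd4, Cd8a, Cd8b1, Klrb1c and Ncr1) none passed, with 3 of the 4 tested at an unadjusted p under 0.05 (22.8% of all genes tested). Their summed level was 48.9 to 70.6 FPKM on the normal diet and 20.4 to 20.8 FPKM on the deficient diet, with Ncr1 listed at 0 in deficient diet replicate 2. Their part in the level of Il2rb was not tested.

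Il21r, the private chain of the IL-21 receptor, was at 202.2 and 134.9 FPKM in the normal diet group, against 64.0 and 59.3 FPKM on the deficient diet. The groups did not overlap, and normal diet replicate 1 was the highest. The log2 difference of -1.41 (95% interval -2.0 to -0.81) had a limma adjusted p of 0.0540 and did not pass. It passed without normal diet replicate 2 (adjusted p = 0.0261), with a filter of 5 FPKM (0.0461), with quantile normalization (0.0327) and with each library scaled to the same sum (0.0483). B cells also carry this receptor. The summed level of 7 B cell markers was 24.7 and 108.6 FPKM in the normal diet group, against 46.3 and 36.0 FPKM on the deficient diet. The part of B cells in the level of Il21r was not tested.

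Il4ra, the private chain of the IL-4 receptor, was at 89.5 and 67.7 FPKM in the normal diet group, against 60.9 and 78.8 FPKM on the deficient diet. Il15ra, which presents IL-15 to cells that carry Il2rb and Il2rg, stood at 5.91 and 4.15 against 3.76 and 5.22 FPKM. The groups overlapped for both chains. The log2 difference was -0.17 (95% interval -0.73 to 0.40) for Il4ra and -0.13 (-0.87 to 0.61) for Il15ra, and neither passed (limma adjusted p = 0.704 and 0.829). Both signs turned when normal diet replicate 1 or deficient diet replicate 1 was left out. Myeloid cells carry Il4ra too. The summed level of 10 macrophage and monocyte markers was 148.9 and 2112 FPKM in the normal diet group, against 1349 and 729.8 FPKM on the deficient diet. The part of myeloid cells in the level of Il4ra was not tested.

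Il2rg, the shared chain, was at 422.5 and 404.1 FPKM in the normal diet group, against 466.2 and 452.6 FPKM on the deficient diet. The deficient diet libraries were higher without overlap, by 1.11-fold, and the log2 difference of 0.15 (95% interval -0.19 to 0.50) did not pass (limma adjusted p = 0.550). Jak1 stood at 191.4 and 179.5 against 174.8 and 194.1 FPKM, and Jak3, which is bound to the gamma chain, at 56.2 and 50.7 against 46.9 and 72.9 FPKM. The groups overlapped for both kinases. Their log2 differences were -0.0092 (95% interval -0.37 to 0.35) for Jak1 and 0.13 (-0.51 to 0.77) for Jak3. The interval of Jak1 and that of Il2rg each lie within 0.50 log2 units of 0, while that of Jak3 is wider, and the sign of Jak3 turned without deficient diet replicate 2.

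**Figure D2:**
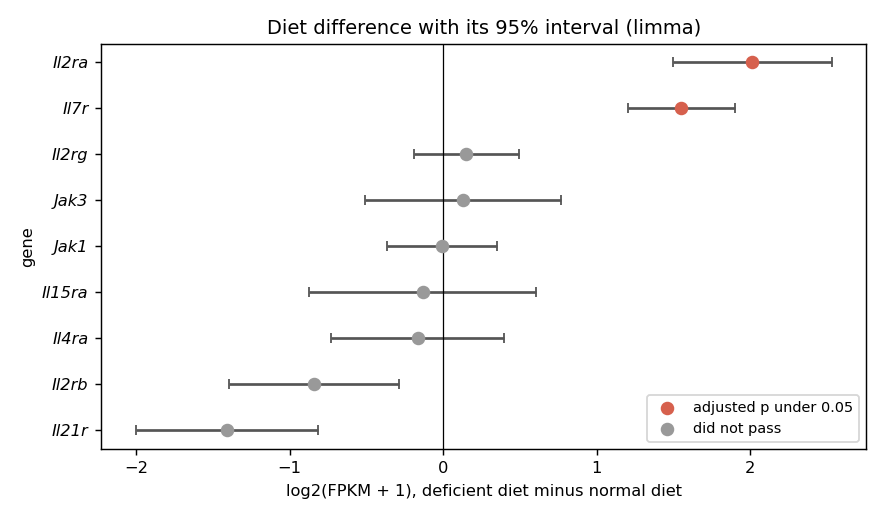
Difference in log2(FPKM + 1), deficient diet minus normal diet (horizontal axis), for the 9 genes tested (vertical axis), with bars for the 95% interval of the limma fit over 2 libraries per diet; red points passed an adjusted p of 0.05. Il2ra (2.02) and Il7r (1.55) are the points that passed, and the intervals of Il21r and Il2rb lie below 0 although neither passed after adjustment.

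The 8 receptor chains together summed to 1550 and 1324 FPKM on the normal diet and to 1396 and 1524 FPKM on the deficient diet, so the sums of the diets overlapped while the make-up differed. Il2rb held 42.9% and 40.2% of that sum on the normal diet, against 20.5% and 25.1% with the deficient diet. Il7r held 9.51% and 12.2% on the normal diet, against 32.2% and 30.2% with the deficient diet. Il2rb was the most abundant chain in both normal diet libraries and was in place 3 in both deficient diet libraries, behind Il2rg and Il7r. The share of Il2rg was 27.3% and 30.5% against 33.4% and 29.7%, with overlap. Il21r held 13.0% and 10.2% against 4.59% and 3.89%, and Il2ra 1.05% and 1.41% against 4.58% and 5.53%.

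**Figure D3:**
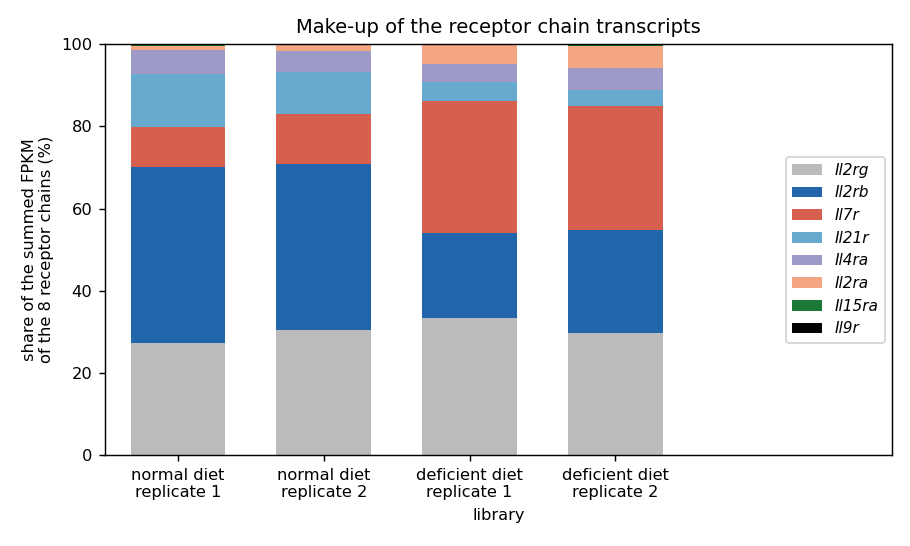
Share of the summed FPKM of the 8 receptor chains held by each chain (vertical axis, percent) in each library (horizontal axis). The red block of Il7r grows from 9.51% and 12.2% on the normal diet to 32.2% and 30.2% on the deficient diet, and the dark blue block of Il2rb is smaller on the deficient diet; Il15ra and Il9r are too small to see clearly.

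Since the chains work in complexes, 12 ratios of levels within a library were compared between the diets. A ratio within a library does not depend on the library's scale. With 2 libraries against 2, the smallest p of the two-sided exact permutation test is 0.333, so no ratio could pass. The ratio of Il2ra to Il2rb was 0.0244 and 0.0350 on the normal diet, against 0.223 and 0.220 with the deficient diet, a 7.57-fold difference of geometric means (exact permutation p = 0.333, adjusted 0.444 over the 12 ratios). The ratio of Il7r to Il2rg was 0.349 and 0.400 against 0.965 and 1.02, so the private chain of the IL-7 receptor came close to the level of the shared chain on the deficient diet. The ratio of Il7r to Il2rb was 0.221 and 0.304 against 1.57 and 1.20, on the other side of 1 in the 2 diets. The ratio of Il2rb to Il2rg, the chains of the IL-15 receptor on T cells, was 1.57 and 1.32 against 0.615 and 0.847. Of the 12 ratios 9 did not overlap between the diets, each with the exact permutation p of 0.333. The exceptions were Il4ra to Il2rg, Jak3 to Jak1 and Il2rg to the summed CD3 chains. The ratios share genes, so they are not independent and in part restate the levels given above. No such count was made for ratios of other genes.

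Relative to the sum of Cd3d, Cd3e and Cd3g, the chains of the T cell receptor complex that define the sorted cells, Il7r stood at 0.178 and 0.257 on the normal diet, against 0.616 and 0.472 with the deficient diet. Il2ra stood at 0.0196 and 0.0297 against 0.0874 and 0.0866 of that sum, and Il2rb at 0.805 and 0.846 against 0.393 and 0.394. None of these 3 overlapped between the diets. Il2rg stood at 0.511 and 0.643 against 0.638 and 0.465 of the CD3 sum, with overlap. The CD3 sum itself was 826.7 and 628.6 FPKM in the normal diet group, against 730.5 and 972.9 FPKM on the deficient diet. Its chains did not move together. Cd3e, the largest part, had higher values on the deficient diet, at 460.0 and 348.3 against 496.1 and 700.3 FPKM. Cd3d, at 154.9 and 128.9 against 110.7 and 128.8 FPKM, and Cd3g, at 211.9 and 151.4 against 123.7 and 143.7 FPKM, had lower values. The ratios to this sum thus depend on Cd3e, and ratios to single CD3 chains were not compared.

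**Figure D4:**
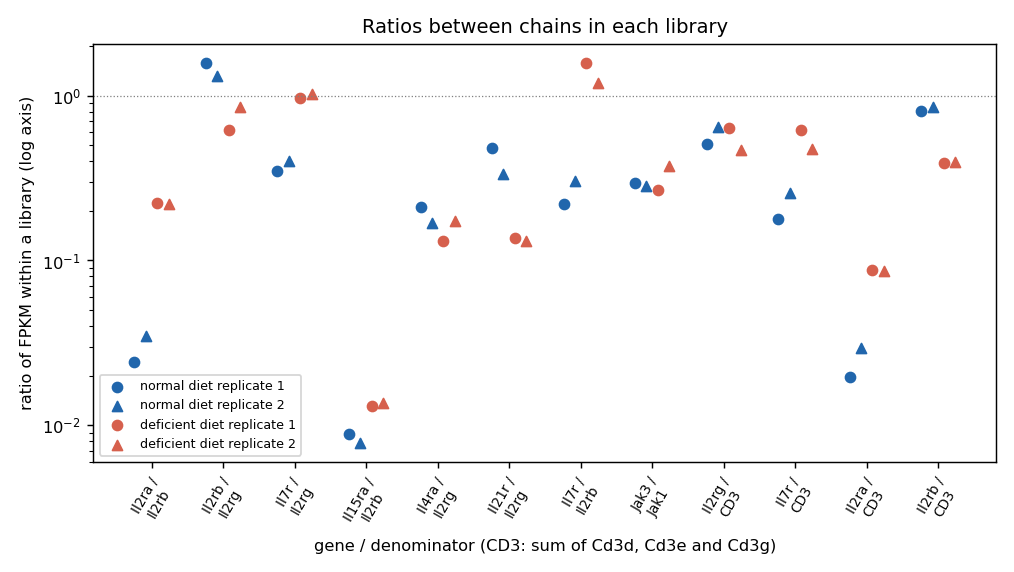
Ratio of FPKM of 2 genes within a library (vertical log axis) for the 12 ratios compared (horizontal axis), blue for the normal diet and red for the deficient diet, circles for replicate 1 and triangles for replicate 2; the dotted line marks a ratio of 1. The ratios of Il7r to Il2rg and to Il2rb are higher on the deficient diet, and those of Il2rb to Il2rg and to the CD3 sum are lower.

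Among these genes are pairs of genomic neighbours. In the RefSeq annotation of GRCm38.p6, Il2ra and Il15ra have 0 protein-coding genes between them, and so have Il4ra and Il21r. Within the first pair Il2ra rose while Il15ra had a log2 difference of -0.13, and within the second Il21r had -1.41 and Il4ra -0.17, neither past the threshold. The difference between neighbours was not tested.

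Other genes of the pathway were counted in 4 lists. Their counts stand beside the 2.74% of all genes tested that passed and the 22.8% at an unadjusted p under 0.05. Of the cytokines and partner chains 9 of 11 listed genes are in the table and 5 were tested, of which 0 passed in limma (1 at an unadjusted p under 0.05) with a median log2 difference of -0.0069. Crlf2, the partner of Il7r in the receptor for TSLP, was at 22.6 and 20.5 FPKM in the normal diet group, against 27.2 and 45.9 FPKM on the deficient diet (adjusted p = 0.236). Il13ra1, which pairs with Il4ra in the type II IL-4 receptor, stood at 1.10 and 10.6 against 6.46 and 2.87 FPKM. The cytokine genes were low: Il2 stood at 2.37 and 2.48 against 0.690 and 0.922 FPKM, and Il4 at 7.92 and 1.08 against 0.624 and 0.225 FPKM, and neither passed. Il7 was listed at 0 in 3 libraries and at 0.850 FPKM in normal diet replicate 1.

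Of 18 signal transducers 16 were tested and 0 passed in limma (7 at an unadjusted p under 0.05, beside the 22.8% of all genes), with a median log2 difference of -0.23. Lck, the kinase that also starts T cell receptor signalling, was at 453.3 and 396.9 FPKM in the normal diet group, against 274.3 and 306.3 FPKM on the deficient diet (adjusted p = 0.129). Stat6, which IL-4 activates, stood at 106.4 and 108.9 against 119.7 and 118.6 FPKM. The largest log2 differences of that list were those of the adaptor Grb2, at 148.0 and 126.7 against 35.1 and 13.6 FPKM, and the kinase Akt1, at 78.8 and 68.3 against 27.7 and 15.1 FPKM, each with an adjusted p of 0.0573. Stat5a and Stat5b, chosen after their values were seen, had log2 differences of 0.32 and 0.23 and did not pass (adjusted p = 0.471 and 0.548).

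Of 16 negative regulators, all of them tested, 0 passed in limma (4 at an unadjusted p under 0.05), with a median log2 difference of 0.072. Socs3, a feedback inhibitor of cytokine signalling, was at 103.0 and 158.2 FPKM in the normal diet group, against 234.7 and 375.1 FPKM on the deficient diet (adjusted p = 0.119). Ptpn6, the phosphatase SHP-1, stood at 164.4 and 181.9 against 102.7 and 80.0 FPKM (adjusted p = 0.0691), and Ptprc, the phosphatase CD45, at 423.8 and 309.3 against 209.2 and 219.6 FPKM (0.115). Cish, a feedback inhibitor that STAT5 induces, chosen after its values were seen, stood at 94.7 and 74.9 against 80.9 and 119.7 FPKM, with overlap.

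Of 18 genes listed as targets of gamma chain signalling, all of them tested, 1 fell and 0 rose in limma (7 at an unadjusted p under 0.05, beside the 22.8% of all genes), with a median log2 difference of -0.25. The gene that fell was Gzmb, granzyme B, at 1154 and 529.3 FPKM in the normal diet group, against 60.8 and 76.6 FPKM on the deficient diet (log2 difference -3.50 ± 0.40 SE, adjusted p = 0.0359). Gzmb did not pass when any library other than normal diet replicate 2 was left out. Prf1, perforin, stood at 84.3 and 52.4 against 15.6 and 22.5 FPKM (adjusted p = 0.0573), and Klf2, a transcription factor of resting T cells, at 406.4 and 487.9 against 254.8 and 159.4 FPKM (0.0973). Of the 18 genes 3 were fitted higher and 15 lower. Without overlap 1 was higher and 10 lower, beside 30.7% and 25.5% of all genes tested. The list was not split by the direction in which such signalling moves a gene, so its median is not a measure of that signalling.

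The other cytokine receptor chains, which share the JAK and STAT pathway but not the gamma chain, were 30 listed genes, 19 of them tested. They gave 1 rise and 2 falls in limma, beside 1.22% and 1.53% of all genes tested, with a median log2 difference of 0.16. Il23r, of the IL-23 receptor, rose with a log2 difference of 2.66 (adjusted p = 0.0471). Il12rb2 and Il10ra, of the IL-12 and IL-10 receptors, fell by 3.0 and 1.85 on the log2 scale (adjusted p = 0.0303 and 0.0405). Without normal diet replicate 2 the counts were 3 rises and 1 fall. The difference between these chains and the gamma chain receptors was not tested.

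**Figure D5:**
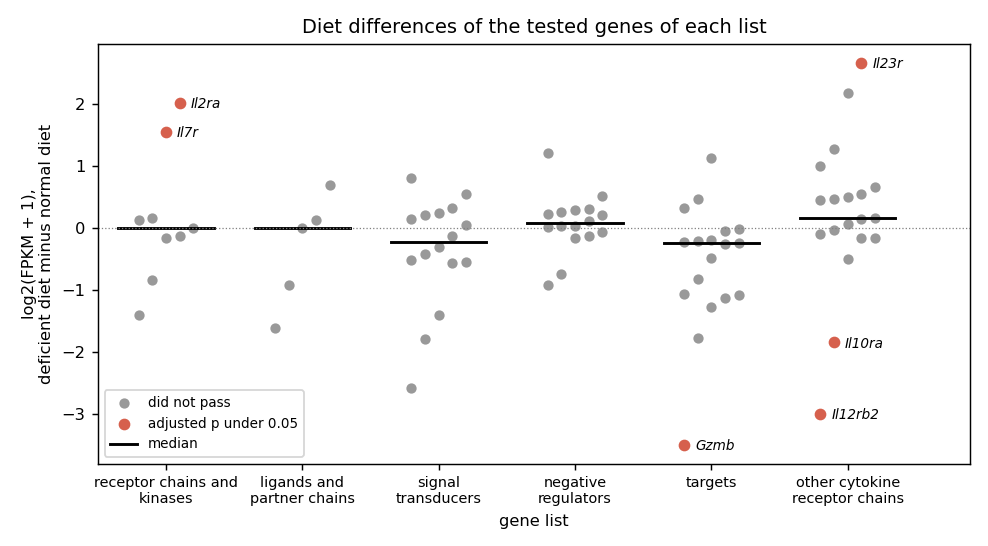
Difference in log2(FPKM + 1), deficient diet minus normal diet (vertical axis), of the tested genes of each list (horizontal axis), with a black bar for the list's median; red points passed an adjusted p of 0.05 and are named. Il7r, Il2ra and Il23r lie above 0 and Gzmb, Il10ra and Il12rb2 below; the medians lie between -0.25 and 0.16.

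The genes whose values over the 4 libraries were nearest to those of Il7r and Il2ra, by Euclidean distance of log2 values after subtracting each gene's own mean, were taken among the tested genes. Nearest to Il7r were Sgip1, Gpr3 and Chdh, at distances of 0.075, 0.11 and 0.14. Chdh, the choline dehydrogenase, rose (4.47 and 5.32 to 18.0 and 16.9 FPKM) and the others did not pass. Sgip1 reached 1 FPKM only on the deficient diet, at 0.435 and 0.614 against 3.16 and 3.38 FPKM. Its difference by mean FPKM was 6.23-fold, beside 2.94-fold for Il7r. Gpr3 stood at 0.821 and 1.09 against 4.72 and 4.35 FPKM, a 4.76-fold difference. Nearest to Il2ra were Cdh10, Nebl and Icos, at distances of 0.10, 0.11 and 0.15, of which Nebl and Icos passed as higher. Cdh10 also reached 1 FPKM only on the deficient diet, at 0.343 and 0.483 against 3.63 and 5.59 FPKM. Its difference by mean FPKM was 11.2-fold, beside 4.25-fold for Il2ra. The pseudocount of 1 makes the log2 change of such low genes too small, so a short distance is not a like fold. Icos, a costimulatory receptor of activated T cells, was at 106.2 and 113.9 FPKM in the normal diet group, against 416.1 and 477.1 FPKM on the deficient diet. Likeness over 4 libraries is a weak description: ranking by Pearson correlation named 3 other genes for each, with 0 in common.

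Library sums ran from 370112 to 389403 FPKM, and 9712 to 10435 genes per library reached 1 FPKM; read depth is unknown, since these values keep no read counts. The CD3 chains and Ptprc, which the sort selects on, were present in all 4 libraries. The 8 T cell markers summed to 1912 to 2421 FPKM on the normal diet and 2048 to 2358 FPKM on the deficient diet. The sums overlapped although the single markers did not: 2 were higher and 6 lower on the deficient diet without overlap. Of all genes tested 30.7% were higher and 25.5% lower without overlap. The median log2 difference of the 8 markers was -0.40. Of these markers 0 passed in limma and 2 had an unadjusted p under 0.05, beside 22.8% of all genes tested. Markers of other cells were also present, without a call among those of B cells, macrophages, neutrophils, sinusoidal endothelium and hepatocytes. Summed levels on the normal and the deficient diet were 67.3 to 733.0 and 267.9 to 291.7 FPKM for 6 neutrophil markers, 49.4 to 540.6 and 70.4 to 275.5 FPKM for 6 endothelial markers and 11.4 to 69.0 and 29.5 to 53.1 FPKM for 7 hepatocyte markers. For macrophage and monocyte markers the sum on the deficient diet was 729.8 to 1349 FPKM. Camp and Elane of the neutrophil list, Clec4f of the macrophage list and Ttr and Fgb of the hepatocyte list were listed at 0 in at least 1 library. The 6 mast cell and basophil markers summed to 0.438 to 11.9 FPKM and 0 to 0.824 FPKM, each listed at 0 in at least 1 library.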

How the data were processed

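RNA of sorted double negative T cells was sequenced in 4 libraries, grouped by the diet in the labels. Per the labels' protocols, the RNA was isolated with Trizol and a TruSeq kit of Illumina was used. The deposited values have fractions, go far below 1 and add up to different totals, and were read as FPKM for that reason; neither the table nor the labels name the unit. Bowtie 0.12.2 and the build mm8 are listed, per the submitters' processing notes; no quantifier or annotation is named there or in the labels. No whole read counts could be recovered, so the depth, and with it the precision, is unknown and no count test was run.

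The whole table was fitted with limma 3.58.1 in R 4.3.3 on log2(FPKM + 1) for genes that reached 1 FPKM in 2 or more libraries, with a mean-variance trend and diet as the single factor. Degrees of freedom were 2 (residual) and 2.84 (prior), and p-values were Benjamini-Hochberg adjusted over all genes tested. Adding a pseudocount of 1 makes the log2 change of a low gene too small. Folds were computed from mean FPKM. The limma step was tested on simulated data in which genes of equal mean level shared the same spread. In the data the spread differs between such genes, so that test does not bear on the calls given here. Ratios were compared with an exact permutation test. The genes, lists and tests were chosen with earlier results of these data known. All 10 genes are named; of each pathway list, called genes, the 2 most abundant and the 2 with the largest absolute log2 difference among those tested are named, and of the other receptor chains the called genes. Stat5a, Stat5b, Cish, Il7 and the markers given beside a result lie outside this rule. Of the lists, Il9, Tslp and Il28ra were not analysed here. Alternatives were other pseudocounts, filters, scalings, a fit without the trend, an adjusted p of 0.10, a replicate block and leaving out each library.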

Additional observations from a re-analysis of the deposited data

How the results depend on the processing

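Il7r and Il2ra were higher in each of the 13 alternative fits, with log2 differences of 1.48 to 1.62 and 1.81 to 2.21 and limma adjusted p of 0.0176 to 0.231 and 0.0199 to 0.231. Il21r was lower in each, by -1.70 to -1.12. Counts of genes that passed moved as follows; the main counts were 2 higher and 0 lower among the gamma chain genes, 286 (127 higher, 159 lower) among all genes, 0 higher and 1 lower in the pathway lists, and 1 higher and 2 lower among other receptor chains. Without a filter on low values all these counts were 0 in limma, where 2768 genes had an unadjusted p under 0.05. With the replicate number as a block they were also 0, with 1844 genes at an unadjusted p under 0.05. The limma adjusted p with that block was 0.0846 for Il7r and 0.0754 for Il2ra. Same-numbered libraries deviated oppositely (r = -0.284 across genes), which gives no sign of a pairing by number but, with 2 libraries per diet, cannot exclude one. With the crossed pairing as a block, added after seeing the data, the counts were 1 gamma chain gene higher, 52 genes in all (23 higher, 29 lower), and 0 higher and 1 lower among other chains. That gamma chain gene was Il7r (limma adjusted p = 0.0481), and Il2ra did not pass (0.0523). Quantile normalization gave 1 gamma chain gene lower (Il21r), 467 genes in all (205 and 262), 6 pathway genes lower and 2 other chains higher. A filter of 5 FPKM gave 1 gamma chain gene and 3 pathway genes lower. Scaling to the same sum gave 1 gamma chain gene and 2 pathway genes lower and 0 other chains higher, as a pseudocount of 0.1 also did for the other chains (0). Without the trend 141 genes passed (57 and 84), with 0 pathway genes lower and 0 higher and 1 lower among other chains. At an adjusted p of 0.10 the counts were 1 gamma chain gene lower, 912 genes in all (430 and 482), 3 higher and 10 lower in the pathway lists and 3 other chains higher. With each library left out in turn, the counts ranged from 0 to 2 higher and 0 to 1 lower among gamma chain genes, 0 to 352 in all (0 to 207 higher, 0 to 145 lower), 0 to 1 higher and 0 to 2 lower in the pathway lists, and 0 to 3 higher and 0 to 1 lower among other chains. The cause of these shifts was not tested. Signs turned for values near 0 that had not passed, where leaving out each library gave log2 differences of -0.35 to 0.080 for Il15ra (0.060 without deficient diet replicate 1), -0.36 to 0.032 for Il4ra (0.017), -0.084 to 0.066 for Jak1 (0.037 without normal diet replicate 1) and -0.19 to 0.44 for Jak3. The log2 ratio difference ran from -0.10 to 0.38 for Jak3 to Jak1 and from -0.30 to 0.15 for Il2rg to the CD3 sum (0.092 without normal diet replicate 2). With 1 library left out, only the other diet gives a spread, and the lone library is assumed to vary like them. The unknown depth and 2 libraries per diet limit what differences could be seen.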
